A study of Mus musculus with 6 samples.

Results

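The intermediate filament and lamin genes examined here are 10 genes, Des, Vim, Nes, Synm, Krt8, Krt18, Krt19, Lmna, Lmnb1 and Lmnb2, chosen by name among the 23284 genes of a table of expression in the ventricles of mouse embryos at embryonic day (E) 9.5. All 10 were found, each as 1 row of the table. The RNA-seq compared 3 WT embryos with 3 KD embryos, all labelled as strain C57BL/6 (the ES cells came from C57BL/6 J), made by tetraploid complementation, in which the embryo proper grows from injected embryonic stem (ES) cells. The KD embryos have the genotype Tbx5ua -/-: both alleles of Tbx5ua, a long non-coding RNA transcribed away from the Tbx5 promoter, hold a cassette of polyadenylation signals in the second exon, which stops transcription before the end of the gene. The ES cells of the KD group were edited with CRISPR/Cas9 and grown from single colonies, so the group stands on a small number of clones, and the labels do not say which clone each embryo came from. The deposited table names the KD group KO. Tbx5ua was not analysed here, so the knockdown was not checked from these values. The paper reports that quantitative RT-PCR found Tbx5ua strongly reduced in KD embryos at E9.5.

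Intermediate filaments are rope-like polymers of long coiled-coil proteins. Desmin is the form of muscle cells, where it ties sarcomeres at the Z-disc to each other, to cell junctions and to the nucleus. Vimentin is the form of mesenchymal and endothelial cells, keratins form obligate pairs of a type I and a type II protein in epithelia and simple embryonic cell layers, and lamins line the inner face of the nuclear envelope. The comparison asks whether ventricles with Tbx5ua knocked down hold other amounts of these transcripts.

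Each gene has 1 pooled WT value and 1 pooled KD value, in FPKM (mapped fragments per unit of transcript length and of library size). Values of single embryos were not at hand, so no SD could be given and no new test of a difference could be fitted. The authors' own test columns were not used, so none of the differences below is set against the spread between embryos. Differences are therefore described by their size only. A gene was counted as measured when it was above 0 in both groups with a mean FPKM of at least 1, and as past the fold when the group values differed by at least 1.5-fold. The table held 11309 such genes. Summed FPKM was 859452 for WT and 877889 for KD, the number of reads behind them is unknown, and the median log2 ratio of KD over WT over all genes measured was 0.0042. In whole ventricles, fewer cells of a type and less RNA per cell cannot be told apart.

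All 10 filament and lamin genes were measured, and 0 of the 10 were past 1.5-fold. Over all genes measured, 6.56% were past it. Of the 10 genes, 5 had a higher value in KD and 5 a lower one. Their median log2 ratio was -0.0027, beside 0.0042 over all genes measured, and their ratios ran from -0.40 for Synm to 0.34 for Lmna. The log2 ratio of 8 of the 10 lay within 0.32 of 0, as it did for 79.6% of all genes measured. The group values of 5 lay within 1.1-fold of each other, against 46.7% of all genes. All 10 ratios lay between the 5th and the 95th percentile of all genes measured, which were -0.44 and 0.52. The 10 genes together held 0.194% of the summed FPKM in WT and 0.196% in KD.

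**Figure D1:**
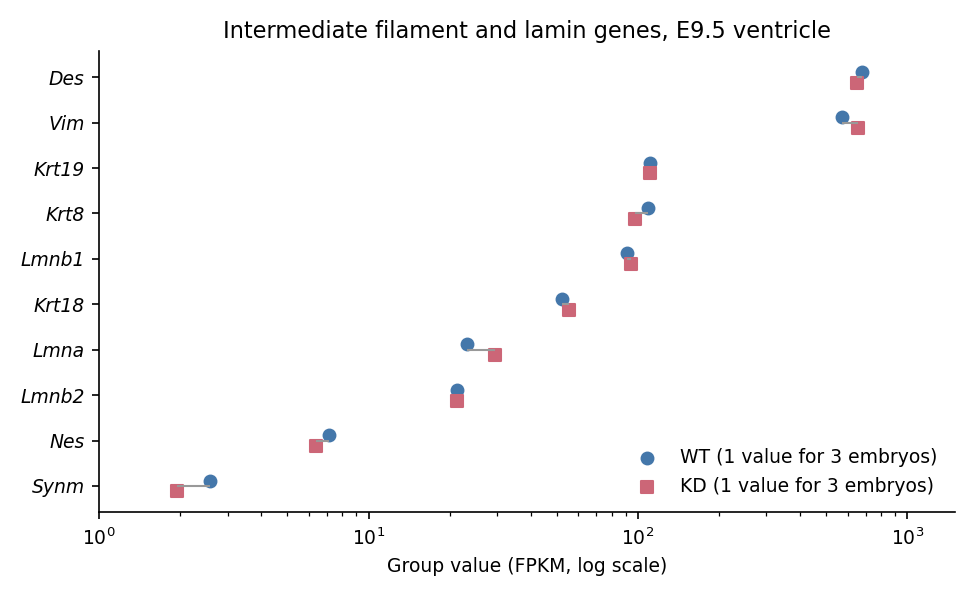
Group values of the 10 filament and lamin genes in FPKM on a log scale, with 1 circle for the 3 WT embryos and 1 square for the 3 KD embryos. The genes keep nearly the same order in both groups over a range from about the level of Synm (2.57 FPKM in WT) to that of Des (677 FPKM in WT), and no error bar can be drawn.

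Desmin and vimentin transcripts were by far the most abundant of the 10. Des, which encodes the muscle intermediate filament protein, lies on chromosome 1 from 75360344 to 75367715 on the plus strand (build mm10). Its value was 677 FPKM in WT against 650.3 FPKM in KD, a log2 ratio of -0.06. It ranked 247 from the top by mean level among the 11309 genes measured. Exons of Gm15179 on the opposite strand overlap annotated exons of Des over 220 bases. Vim, the vimentin gene on the plus strand of chromosome 2 from 13574311 to 13582826, had 572 FPKM in WT against 657 FPKM in KD, a log2 ratio of 0.20, or 14.9% above the WT value. It ranked 267 from the top. Thus Vim stood below Des in WT and level with it in KD: the ratio of Vim to Des was 0.845 in WT and 1.01 in KD, a change of 0.26 on the log2 scale. For genes with a mean of 100 FPKM or more, the 5th and 95th percentiles of the log2 ratio were -0.22 and 0.25, so both genes lay inside the range that holds most genes of their level.

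The bases just before the RefSeq start of these 2 genes are shown because these genes had the most abundant transcripts of the set. The 2 windows also differ in the elements they carry. Each line gives the 150 bases before the start, on the plus strand of GRCm38.p6, at chr1:75360142-75360291 for Des and chr2:13574161-13574310 for Vim. Capitals mark matches on either strand to the TATA box in the form TATAAA, to the box bound by NF-Y in the form CCAAT, to the GC box of Sp1 in the form GGGCGG, or to the E-box in the form CANNTG, where N is any base, and no match overlaps another.
Des: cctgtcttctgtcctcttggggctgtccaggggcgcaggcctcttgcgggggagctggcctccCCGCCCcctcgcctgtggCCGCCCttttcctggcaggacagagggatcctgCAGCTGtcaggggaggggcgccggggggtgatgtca
Vim: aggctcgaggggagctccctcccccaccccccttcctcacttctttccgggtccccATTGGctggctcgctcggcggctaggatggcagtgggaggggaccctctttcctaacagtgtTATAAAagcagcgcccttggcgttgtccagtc
The Des window held 2 GC boxes, both on the minus strand, and 1 E-box whose first base lay 36 bases before the start. The Vim window held a TATA box whose first base lay 32 bases before the start and a match to CCAAT on the minus strand. Among the 32851 RefSeq promoters of the same build and window, 7.57% held TATAAA, 24.5% held CCAAT, 28.6% held GGGCGG and 47.7% held CANNTG. The matches describe these windows only, since nothing here measured what binds there. The Des gene model of the deposited table begins at 75360344, after the RefSeq start, which lies just past the end of the Des window. The bases just before that later start are not shown, so the difference between the 2 windows holds for the RefSeq starts only.

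Transcripts of the other filament proteins that assemble with desmin or vimentin were low. Synm encodes synemin, a large protein that joins desmin filaments to costameres and cannot form filaments alone. It lies on the minus strand of chromosome 7 from 67730161 to 67759742 and had 2.57 FPKM in WT against 1.94 FPKM in KD. This is the largest difference among the 10 genes, 1.32-fold lower in KD, a log2 ratio of -0.40. For genes with a mean from 1 to below 10 FPKM, the 5th and 95th percentiles of the log2 ratio were -0.56 and 0.67, and 11.4% of the 5622 genes were past 1.5-fold, so the ratio of Synm lay inside the range of its level. Exons of Ttc23 and Gm45102 on the opposite strand overlap annotated exons of Synm over 510 bases, and Smart-Seq2 libraries do not keep the strand, so reads there cannot be told apart by strand. Nes encodes nestin, which copolymerizes with vimentin or desmin in progenitor and young muscle cells. Nes, on the plus strand of chromosome 3 from 87971093 to 87980451, had 7.12 FPKM in WT against 6.38 FPKM in KD, a log2 ratio of -0.16. Per length, Des transcripts outnumbered Synm transcripts by 263 to 1 in WT and 335 to 1 in KD, and Vim outnumbered Nes by 80.3 to 1 in WT and 103 to 1 in KD. Both minor partners had the lower value in KD.

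**Figure D2:**
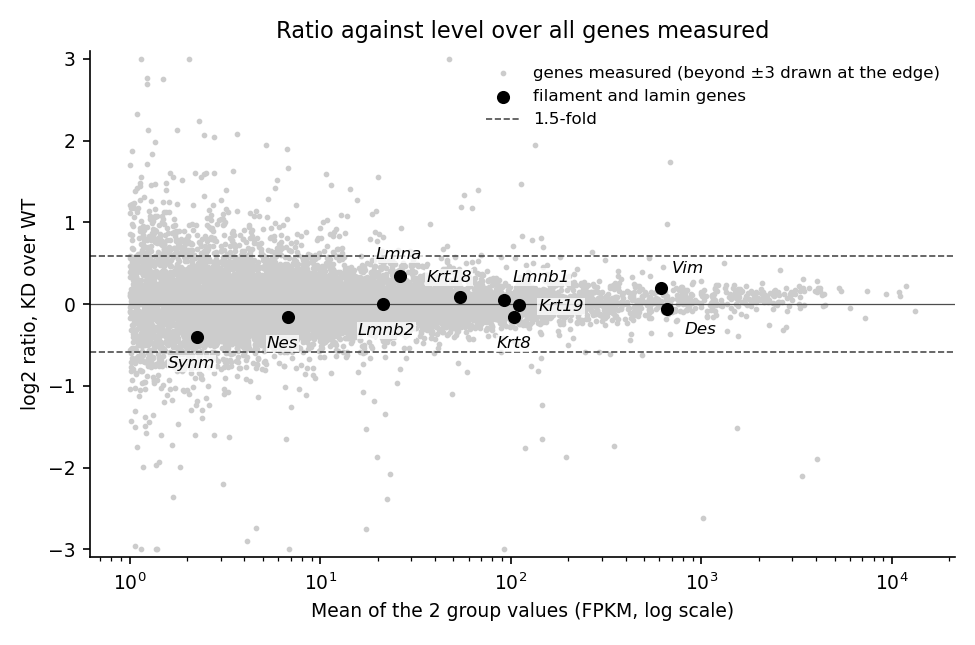
Log2 ratio of KD over WT against the mean of both group values (FPKM, log scale) for the 11309 genes measured (grey; ratios beyond 3 in size drawn at the edge) and the 10 filament and lamin genes (black), with dashed lines at 1.5-fold. All 10 black points lie between the dashed lines, and the grey points spread more widely at low levels, where Synm and Nes lie.

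The keratins of simple epithelia were present in WT ventricles at levels above those of most genes. Keratin 8 is the type II partner, and keratins 18 and 19 are type I partners that pair with it. Krt8 lies on the minus strand of chromosome 15 from 101996711 to 102004342, and Krt18 on the plus strand of the same chromosome from 102028216 to 102032026, with 23.9 kb between them. Krt8 had 109 FPKM in WT against 97.9 FPKM in KD, a log2 ratio of -0.15. Krt18 had 52.2 FPKM in WT against 55.4 FPKM in KD, a log2 ratio of 0.09. Krt19, on the minus strand of chromosome 11 from 100140811 to 100145919, had 111 FPKM in WT against 110.6 FPKM in KD, a log2 ratio of -0.01 and one of the smallest differences of the set.

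Krt8 and Krt19 stood at nearly the same level in WT, with a ratio of Krt8 to Krt19 of 0.979, and at 0.885 in KD. Krt8 to Krt18 stood at 2.09 in WT and 1.77 in KD. The summed level of both type I genes therefore exceeded that of Krt8 in both groups, since Krt8 held 40.0% of the keratin sum in WT and 37.1% in KD. The keratin sum was 273 FPKM in WT against 264 FPKM in KD. The values of the neighbouring Krt8 and Krt18 differed between groups in opposite directions, by amounts that were not set against embryo to embryo spread. Processed pseudogenes of Krt8 and Krt18 are known, so reads could have been shared with near-identical copies, and an exon of Gm36026 on the other strand overlaps Krt8.

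The markers of epithelia that could have been carried along with the ventricles were near 0. Of Epcam, Cdh1, Foxa2, Nkx2-1 and Shh, which mark endodermal epithelium, 0 of 5 were measured, and their summed level was 0.517 FPKM in WT against 0.578 FPKM in KD. Shh was listed at 0 in both groups. The hepatic and yolk sac markers Afp, Alb, Apoa1 and Ttr summed to 0.607 FPKM in WT against 1.37 FPKM in KD, and Alb was listed at 0 in both. Epicardial markers were present and differed between the groups. Of Wt1, Tbx18, Tcf21, Upk3b, Upk1b, Aldh1a2 and Sema3d, 6 were measured, all 6 were higher in KD and 5 were past 1.5-fold, where 3.89% of all genes measured were past it in that direction. Their summed level was 47.3 FPKM in WT against 96.8 FPKM in KD, a ratio of 2.05. The epicardium and mesothelium are known to make keratins 7, 8, 18 and 19 as well as vimentin. Their part in the values of Vim and the keratins was not tested.

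The lamin genes had the same or a higher value in KD. Lmna, which encodes the A-type lamins A and C of differentiated cells, lies on the minus strand of chromosome 3 from 88481149 to 88503332. It had 23.2 FPKM in WT against 29.4 FPKM in KD, 1.27-fold higher in KD, a log2 ratio of 0.34. This was the highest log2 ratio among the 10 genes, and it lay just above the 95th percentile of 0.339 for genes with a mean from 10 to below 100 FPKM, of which 1.72% were past 1.5-fold. Lmnb1, the gene of lamin B1 on the plus strand of chromosome 18 from 56707813 to 56753424, had 90.9 FPKM in WT against 93.9 FPKM in KD, a log2 ratio of 0.05. Lmnb2, the gene of lamin B2 on the minus strand of chromosome 10 from 80901363 to 80918245, had 21.2 FPKM in WT against 21.3 FPKM in KD. Its log2 ratio of 0.0037 was the smallest difference of the 10, and its sign turns when both groups are scaled to the same summed FPKM or centred on the median gene.

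Lmnb1 was the main lamin transcript in both groups, with 67.2% of the lamin sum in WT and 64.9% in KD. Lmna held 17.1% in WT and 20.4% in KD, and Lmnb2 15.7% and 14.7%. Lmnb1 exceeded Lmna 3.92-fold in WT and 3.19-fold in KD. The 2 B-type genes kept their proportion, with Lmnb1 to Lmnb2 at 4.28 in WT and 4.41 in KD. Lamin B1 is abundant in dividing cells. The proliferation markers Mki67, Top2a, Cdk1, Ccnb1 and Pcna were lower in KD in 5 of 5 cases, with 0 past 1.5-fold, a median log2 ratio of -0.17 and a summed level of 614 FPKM in WT against 547 FPKM in KD. Over all 11309 genes measured, 5570 had the lower value in KD and 6.56% were past 1.5-fold. Their part in the lamin values was not tested.

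**Figure D3:**
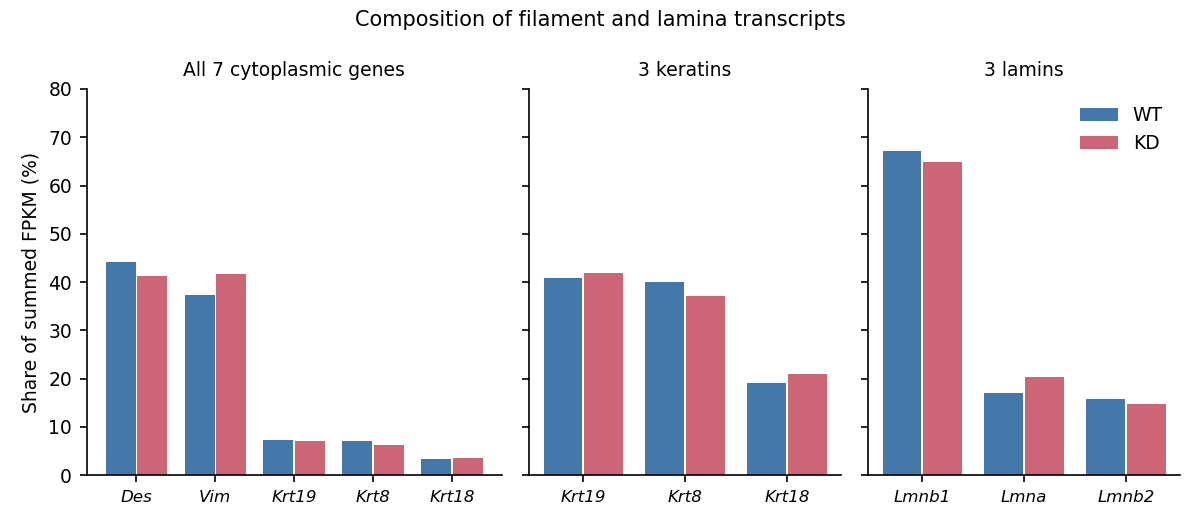
Share of each gene (percent) in the summed FPKM of the 7 cytoplasmic filament genes, of the 3 keratins and of the 3 lamins, in WT and KD, without error bars since each group has 1 value. Des and Vim hold most of the cytoplasmic sum in both groups, Lmnb1 holds 67.2% of the lamin sum in WT and 64.9% in KD, and Nes and Synm, each under 1% of the cytoplasmic sum, are not drawn.

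Genes that act with the filaments are described by the same counts. Of 20 genes of linkers and chaperones, 16 were measured, 6 higher and 10 lower in KD, with a median log2 ratio of -0.03, and 1 was past 1.5-fold, a share near the 6.56% of all genes measured. That gene was Nrap, which encodes a scaffold of forming myofibrils and intercalated discs, with 1.15 FPKM in WT against 1.98 FPKM in KD, a log2 ratio of 0.78 at a level near the measured limit. With a pseudocount of 1 it was not past the fold. Hspb1, a small heat shock protein that binds filaments and actin, was the highest of the list with 2489 FPKM in WT against 2468 FPKM in KD. Cryab, the desmin chaperone alpha B-crystallin, had 699.6 FPKM in WT against 641 FPKM in KD, so it stood about as high as Des itself. Plec, which encodes the linker plectin, had 2.24 FPKM in WT against 1.63 FPKM in KD, a log2 ratio of -0.46, the lowest of this list. The desmosomal anchors of desmin differed little: Dsp, desmoplakin, had 13.0 FPKM in WT against 11.8 FPKM in KD, and Jup, plakoglobin, 32.5 FPKM and 30.2 FPKM. Pkp2, plakophilin 2, had 60.4 FPKM in WT against 68.5 FPKM in KD.

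Partners of the nuclear lamina join lamins to chromatin and to the nuclear membranes. Of 17 genes, 16 were in the table and 15 were measured, 8 higher and 7 lower in KD, with a median log2 ratio of 0.0029 and 0 past 1.5-fold, where 6.56% of all genes measured were past it. The ratios had a range from -0.26 for Syne2 to 0.25 for Tor1aip1. Banf1, a DNA-binding protein that links chromatin to LEM-domain proteins, was the highest with 639 FPKM in WT against 682 FPKM in KD. Emd, emerin, had 95.6 FPKM in WT against 96.5 FPKM in KD. Lbr, the lamin B receptor that tethers heterochromatin, had 33.4 FPKM in WT against 29.6 FPKM in KD, a log2 ratio of -0.17. The 5 genes of prenylation and processing of lamins were all measured, 2 higher and 3 lower in KD, with 0 past 1.5-fold. Fnta, a farnesyltransferase subunit gene and the highest of them by mean, had 27.3 FPKM in WT against 30.9 FPKM in KD. Rce1, which encodes a protease of prenylated proteins, had 28.4 FPKM in WT against 28.2 FPKM in KD, and Zmpste24, the protease that matures prelamin A, had 12.5 FPKM in both.

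Other intermediate filament genes were mostly under the measured limit. Of 17 genes, 13 were under the measured limit, among them Krt5, listed at 0 in both groups, and Gfap, at 0.0102 FPKM in WT and listed at 0 in KD. The 4 measured genes were Krt7, Krt10, Krt20 and Nefl. Nefl, the neurofilament light chain gene, was the highest with 7.003 FPKM in WT against 5.62 FPKM in KD. Krt7, a simple epithelial keratin also made by mesothelium, had 1.92 FPKM in WT against 3.40 FPKM in KD, a log2 ratio of 0.82. Among these 17 genes and the 10 examined above, Krt7 was thus the 1 gene both measured and past 1.5-fold. Genes of the family outside these lists were not examined. The other 3 measured genes of the list had the lower value in KD, and the median log2 ratio of the 4 was -0.17. With no filter on low values, the list median turned to 0.56 and 6 genes of the list were past 1.5-fold. Under that setting 21.1% of all genes were past it. Krt7 is 1 of 4 measured genes, where 3.89% of all genes measured were past it in that direction and 11.4% of genes with a mean from 1 to below 10 FPKM in either. It was not past 2-fold, and with a mean FPKM of at least 5 Krt7 was left out.

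**Figure D4:**
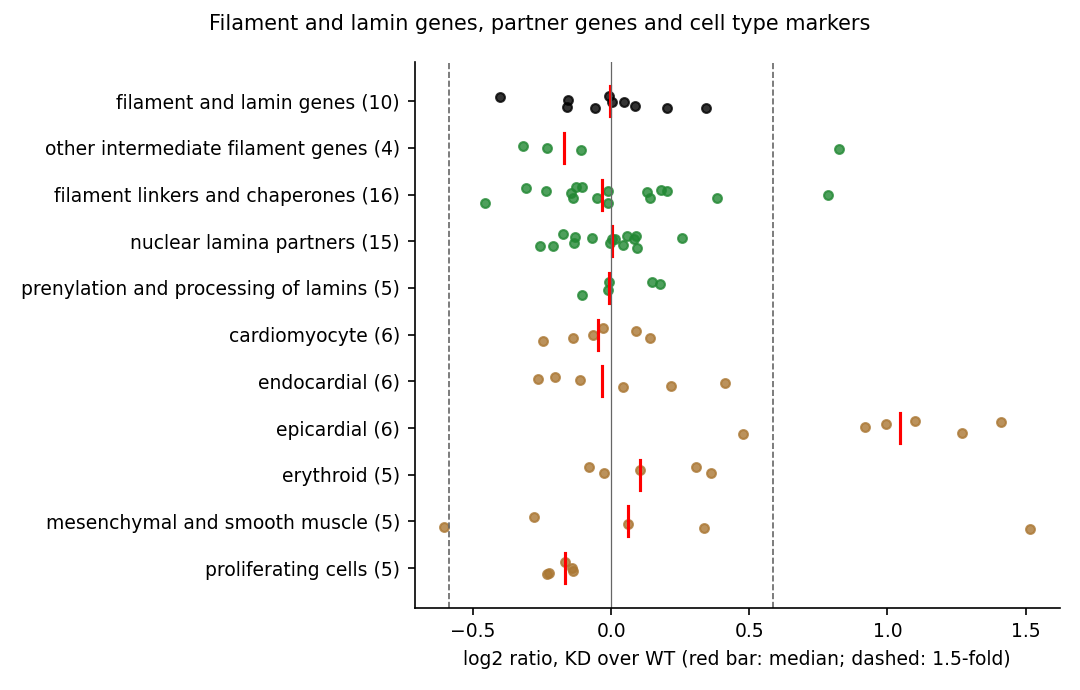
Log2 ratios of KD over WT for the measured genes of each list drawn, 1 point per gene. Red bars mark list medians, dashed lines mark 1.5-fold, and the number of measured genes is in brackets. The neural and neural crest list, with Tubb3 (log2 ratio 1.14) as its 1 measured gene, is not drawn. The filament and lamin genes lie around 0, as do their partners other than Krt7 and Nrap, while 5 of 6 epicardial markers lie beyond the upper dashed line.

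Markers of the main cell types of the ventricle are given to describe the tissue. Which cells the filament transcripts came from was not tested. All 6 cardiomyocyte markers, Tnnt2, Myh6, Myh7, Actn2, Nkx2-5 and Ttn, were measured, with a summed level of 3100 FPKM in WT against 3061 FPKM in KD and 0 past 1.5-fold, so the defining genes of heart muscle were present in both groups. Of the 6 endocardial markers, 3 were higher and 3 lower in KD, with a median log2 ratio of -0.03. Their sum was 118 FPKM in WT against 128 FPKM in KD, and Emcn, the highest of them, had 43.1 FPKM in WT against 57.4 FPKM in KD, a gain larger than that of the sum. The 5 erythroid markers summed to 11438 FPKM in WT against 11518 FPKM in KD. Of the 5 mesenchymal and smooth muscle markers, all measured, 3 were higher and 2 lower in KD, and their sum was 3451 FPKM in WT against 2784 FPKM in KD, most of it Acta2 with 3045 FPKM in WT against 2512 FPKM in KD. Pdgfra was past 1.5-fold with 0.969 FPKM in WT against 2.78 FPKM in KD, and Tagln was past it in the other direction with 400.3 FPKM in WT against 263 FPKM in KD. Of all genes measured, 3.89% were past 1.5-fold with the higher value in KD and 2.67% with the lower one. Of the neural and neural crest list, Tubb3 was the 1 gene measured. Tubb3 was past 1.5-fold, and also past 2-fold, with 12.2 FPKM in WT against 26.9 FPKM in KD. Sox2 and Foxd3 were listed at 0 in both groups.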

How the data were processed

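Ventricles of 3 WT and 3 KD embryos at E9.5 gave single-end Smart-Seq2 libraries from 10 ng of total RNA, with 12 cycles of preamplification and 9 of enrichment PCR, so copies made by PCR cannot be told from separate molecules. The submitters' processing notes name TopHat, Bowtie2 and Cuffdiff and build mm10; versions, gene annotation and the scaling used by Cuffdiff are not given in the sources used here. The authors deposited 1 table of FPKM values, as 1 value per gene and group with replicates pooled. Its columns of the authors' own comparison (fold change, test score, p and q) were not used. No column of single embryos was at hand, so no test could be fitted and 0 such columns were left unused; depth is unknown.

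The log2 ratio is KD over WT with no pseudocount, over genes above 0 in both groups with a mean FPKM of at least 1, the value that the study set as a lower limit in its screen for lncRNAs in other libraries. Genes past 1.5-fold were counted. Each partner list gave to the text its genes past 1.5-fold and its highest gene; other partners named were picked with their values in view. The 10 genes and all lists were chosen with earlier results of these data known. Alternatives were pseudocounts of 1 and 0.1, 3 scalings, 2 other folds and 2 other filters. Starts in the table count from 0 and were given with 1 added: of 20675 genes matched by symbol to RefSeq, 10015 starts matched with 1 added and 652 without. Strand and exon overlaps came from GENCODE release M21 and promoters from RefSeq (8 of 10 genes matched). The scripts were tested on simulated ratios. Python 3.11.15, NumPy 2.4.6, pandas 2.3.3 and Matplotlib 3.10.9 were used.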

Additional observations from a re-analysis of the deposited data

How the results depend on the processing

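No paired analysis was possible because each group has 1 pooled value, and for the same reason fits without each replicate in turn were not run. The count of filament and lamin genes past the fold was 0 of 10 with either pseudocount, under each of the 3 scalings, at 2-fold and with no filter on low values, and 0 of 9 with a mean FPKM of at least 5, which leaves out Synm. At a limit of 0.32 on the log2 scale it was 2, Synm and Lmna. Their median log2 ratio moved from -0.0027 to -0.033 when both groups were scaled to the same summed FPKM and to -0.0069 when centred on the median gene, and its sign turned with upper quartile scaling (0.0028) and with a mean FPKM of at least 5 (0.0037); any change at 2 decimals was counted, as no spread is known. Over all genes measured, 742 were past 1.5-fold; the count was 331 with a pseudocount of 1, 3321 with no filter on low values, 184 with a mean FPKM of at least 5, 2309 at the limit of 0.32 and 197 at 2-fold. Lmnb2 was the only 1 of the 10 genes whose ratio changed sign under a scaling. With the depth unknown, counting error at the levels of Synm and Nes cannot be given.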
